A study of Mus musculus with 2 samples.

Results

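The mouse genome carries let-7a, let-7c and let-7f at 2 loci each, and these 6 gene copies, Mirlet7a-1, Mirlet7a-2, Mirlet7c-1, Mirlet7c-2, Mirlet7f-1 and Mirlet7f-2, are described here. They were taken by name, as the rows of the deposited tables whose Ensembl identifiers belong to these symbols in GENCODE M21, and make up 6 of the 2202 miRNA genes in the tables. The data are 2 microRNA-seq libraries from hippocampus of female mice aged 25 days. The strain is B6CASTF1/J, the first-generation hybrid of C57BL/6J and CAST/EiJ, untreated as far as the labels say. The samples are biological replicates 1 and 2 of the only group, so no condition is compared. The label names a layer of the hippocampus without saying which, and a bulk sample cannot tell fewer cells of a type from less RNA per cell.

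let-7 miRNAs are cut from hairpin precursors, loaded into Argonaute proteins and pair through their seed (bases 2 to 8) with messenger RNAs, which lowers the output of those messages. The RNA-binding protein Lin28 blocks the processing of let-7 precursors in early development, and mature let-7 accumulates as cells, neurons included, leave the cell cycle and differentiate. The 2 genes of a pair give the same mature let-7 from the 5′ arm of the hairpin, while the passenger strand from the 3′ arm can differ between them.

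The 3 mature sequences, from RefSeq (GRCm38.p6), are shown because their identity between loci decides which reads the gene rows can hold. Capitals mark the seed, which all 3 share.

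mmu-let-7a-5p: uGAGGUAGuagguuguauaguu
mmu-let-7c-5p: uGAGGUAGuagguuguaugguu
mmu-let-7f-5p: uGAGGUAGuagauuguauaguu

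Counted from 1 at the 5′ end, let-7c differs from let-7a by A19G and let-7f differs from let-7a by G12A. Each mature sequence is 22 bases long and stands in full in both hairpins of its pair. A read of exactly these bases matches 2 loci, and the deposited tables put reads that match several places in a separate row and not in a gene row. What the 6 rows hold is therefore the reads from either arm of these hairpins that were placed at 1 locus, and not the level of the mature miRNA. Whether each placed read came from that locus was not tested.

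Read from the mature start, the copies of a pair first differ past the mature end. The first 30 bases from the mature start in each hairpin (GENCODE M21 transcripts) are given below, with the bases past the mature end in capitals.

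Mirlet7a-1: ugagguaguagguuguauaguuUUAGGGUC
Mirlet7a-2: ugagguaguagguuguauaguuUAGAGUUA
Mirlet7c-1: ugagguaguagguuguaugguuUAGAGUUA
Mirlet7c-2: ugagguaguagguuguaugguuUUGGGCUC
Mirlet7f-1: ugagguaguagauuguauaguuGUGGGGUA
Mirlet7f-2: ugagguaguagauuguauaguuUUAGGGUC

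The first difference within a pair is U24A from Mirlet7a-1 to Mirlet7a-2, A24U from Mirlet7c-1 to Mirlet7c-2 and G23U from Mirlet7f-1 to Mirlet7f-2. Among the miRNA genes of the tables, a read from the mature start had to reach 24 bases to occur at 1 locus for the let-7a and let-7c copies, and 23 bases for the let-7f copies. The 8 bases past the mature end were the same in Mirlet7a-1 and Mirlet7f-2, and the same in Mirlet7a-2 and Mirlet7c-1.

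The 3′ arms are shown because they can tell the copies apart. Capitals again mark bases 2 to 8.

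mmu-let-7a-1-3p: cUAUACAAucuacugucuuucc
mmu-let-7a-2-3p: cUGUACAGccuccuagcuuuc
mmu-let-7c-1-3p: cUGUACAAccuucuagcuuucc
mmu-let-7c-2-3p: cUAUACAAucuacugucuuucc
mmu-let-7f-1-3p: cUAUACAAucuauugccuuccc
mmu-let-7f-2-3p: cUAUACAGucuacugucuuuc

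The passenger strands of Mirlet7a-1 and Mirlet7c-2 are identical over 22 bases, so a read of either matches 2 loci as well. Those of the other 4 copies occurred at no other miRNA locus of the tables. Over whole hairpins the pairs are less alike: identity was 69.9% between the let-7a copies, 67.3% between the let-7c copies and 72.2% between the let-7f copies. Of all 22-base windows in a hairpin, from 90.4% (Mirlet7a-1) to 98.5% (Mirlet7f-1) were found at no other miRNA locus, against 100% for each of the 6 other let-7 family genes. The search covered the miRNA genes of the tables and not the whole genome.

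The copies lie in 5 places of the genome (mm10). Mirlet7a-1 (ENSMUSG00000065421.3, chromosome 13, 48538179 to 48538272) and Mirlet7f-1 (ENSMUSG00000105621.1, chromosome 13, 48537829 to 48537917) sit on the minus strand in an exon of the lincRNA gene 6720427I07Rik, 262 bases apart, with Mirlet7d further along the same transcript. Mirlet7a-2 (ENSMUSG00000092770.1, chromosome 9, 41536716 to 41536811) lies in an intron of the noncoding genes 3110039I08Rik and Gm49317, near Mir100. Mirlet7c-1 (ENSMUSG00000065557.3, chromosome 16, 77599657 to 77599750) lies next to Mir99a in an intron of the noncoding gene Mir99ahg. Mirlet7c-2 (ENSMUSG00000065608.1, chromosome 15, 85706603 to 85706697) lies, like Mirlet7b, in an exon of Lncppara, a noncoding gene. Mirlet7f-2 (ENSMUSG00000065602.1, chromosome X, 151912346 to 151912428) lies in an intron of Huwe1, which encodes a ubiquitin ligase, as does Mir98. The hairpins are 83 to 96 bases long.

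The replicate 1 library held 5481053 counts in miRNA genes and the replicate 2 library 4266963. Reads matching several places numbered 6481877 and 6343330, which is 192 and 160 times the counts of all 6 copies together. How many of those reads were let-7 was not analysed here. Of 13 neuronal marker genes fixed for the tissue check, 10 were detected, meaning at least 2 CPM in each library. CPM is counts per 1000000 counts in miRNA genes. The 13 genes summed to 46296 CPM in replicate 1 and 50185 in replicate 2. Single genes of the list moved in opposite directions behind these sums. Mir132 had 93957 counts in replicate 1 and 17230 in replicate 2, and Mir128-1 had 63615 and 93100. The sums for other cells differed more. The oligodendrocyte genes Mir219a-2 and Mir338, both detected, summed to 6491 CPM in replicate 1 and 884 in replicate 2. The 5 epithelial genes of the miR-200 family (4 detected) summed to 72.4 and 5824 CPM. The 3 endothelial and mural genes, all detected, summed to 21958 and 12895 CPM, the 4 microglia and blood genes to 118 and 146, Mir122 of liver to 32.3 and 141, and the 5 muscle genes (1 detected; Mir1a-1, Mir133a-1 and Mir133a-2 at 0) to 26.8 and 38.2. The part of these differences in the values below was not tested.

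All 6 copies were detected in both libraries. Mirlet7c-2 had 2404 CPM in replicate 1 and 4400 in replicate 2 (mean 3402 ± 1411, SD, n = 2), and Mirlet7f-2 had 2615 and 2916 CPM (2766 ± 213). These were the highest of the set, at ranks 58 and 69 of all genes by mean CPM. Which of them led depended on the library, since Mirlet7f-2 was above Mirlet7c-2 in replicate 1 and below it in replicate 2.

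Mirlet7c-1 followed with 655 and 1130 CPM (893 ± 336) and Mirlet7a-1 with 283 and 529 CPM (406 ± 174). Neither overlapped the other, nor Mirlet7f-2 above or Mirlet7a-2 below, across the 2 libraries. Mirlet7a-2 had 105 CPM in replicate 1 and 207 in replicate 2 (156 ± 72.3), and Mirlet7f-1 had 109 and 126 CPM (118 ± 12.3). The order of these lowest copies changed between the libraries. Their exact Poisson 95% intervals overlapped in replicate 1 (96.7 to 114 CPM for Mirlet7a-2, 100.4 to 118 for Mirlet7f-1) and lay apart in replicate 2 (194 to 222 and 116 to 137). Over both libraries their means differed by less than the SD of Mirlet7a-2. The order of the 6 was the same on mean CPM per 100 bases of hairpin, which ran from 132 for Mirlet7f-1 to 3581 for Mirlet7c-2.

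**Figure D1:**
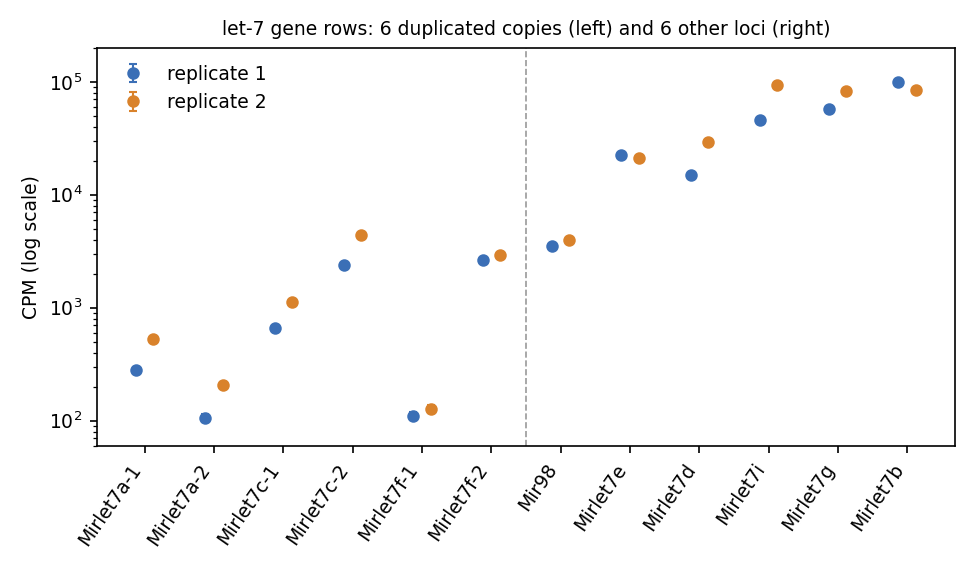
Level of each let-7 family gene row in CPM (log axis) in replicate 1 (blue) and replicate 2 (orange), with exact Poisson 95% intervals that are mostly smaller than the points. The 6 copies left of the dashed line lie between 105 and 4400 CPM, and of the other family genes only Mir98 (3540 and 3945 CPM) lies in that range.

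The 6 copies together held 33824 counts in replicate 1 and 39718 in replicate 2, which is 0.617% and 0.931% of the counts in miRNA genes. Within the let-7 family rows they made up 2.47% and 2.87%. The other 97.5% and 97.1% came from Mirlet7b, Mirlet7d, Mirlet7e, Mirlet7g, Mirlet7i and Mir98, whose mature forms differ from those of the copies. The median of the mean CPM was 649 over the 6 copies, 45928 over these 6 other genes and 118 over all 433 detected genes. On mean CPM per 100 bases of hairpin, Mir98 (3465) fell between Mirlet7f-2 (3332) and Mirlet7c-2 (3581), and the other 5 family genes stood above every copy. The genes outside the family whose levels in the 2 libraries came nearest to those of Mirlet7c-2, the most abundant copy, were Mir484 (distance 0.27 in log2(CPM + 1) over 2 libraries), Mir320 (0.30) and Mir409 (0.54).

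Within each pair 1 copy held most of the placed reads. In replicate 1, Mirlet7a-1 held 72.9% of the counts of the let-7a pair (exact 95% interval 70.9 to 74.8), and in replicate 2 it held 71.8% (70.2 to 73.4). Mirlet7c-2 held 78.6% (77.9 to 79.2) and 79.6% (79.0 to 80.1) of the counts of the let-7c pair. Mirlet7f-1 held only 4.00% (3.69 to 4.33) and 4.15% (3.82 to 4.51) of the counts of the let-7f pair. The X-linked let-7f locus thus had 24.0 and 23.1 times the placed reads of the chromosome 13 locus. In all 3 pairs the copy with more counts was the one whose sequence has U at the first base that differs (U24A, A24U and G23U above). Mirlet7a-1 and Mirlet7c-2, which led their pairs, are also the copies that share a passenger strand with each other. Full-length passenger reads of either match both loci, while those of Mirlet7a-2 and Mirlet7c-1 occur at no other miRNA locus. The let-7a and let-7c splits can thus compare unlike reads. Read lengths and ends, and the arm that placed reads came from, were not analysed here.

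The split between copies was close to the same in the 2 libraries. From replicate 1 to replicate 2 the ratio of Mirlet7a-1 to Mirlet7a-2 changed 0.948-fold (95% interval 0.838 to 1.07, on the log scale; adjusted p = 0.61). The ratio of Mirlet7f-1 to Mirlet7f-2 changed 1.04-fold (0.924 to 1.17; adjusted p = 0.689). Neither passed the two-sided Fisher exact test with Benjamini-Hochberg adjustment over all numbered copy pairs. The ratio of Mirlet7c-1 to Mirlet7c-2 passed, with a 0.942-fold change (0.897 to 0.989; adjusted p = 0.0293, Fisher exact test), which is 0.989 percentage points of the pair's counts. So 1 of the 3 let-7 pairs was called, where 64% of all 25 copy pairs in the tables were called.

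The copies of a pair lie on different chromosomes in all 25 pairs, and over these the ratio of one copy to the other moved by a median of 1.39-fold between the libraries in either direction. It moved by 1.04-fold for let-7f, 1.05-fold for let-7a and 1.06-fold for let-7c. Smaller moves than these were seen in 2, 4 and 6 of the 25 pairs, let-7 pairs included. The median move of the 22 copy pairs outside let-7 was 1.48-fold. The pairs among Mir9-1, Mir9-2 and Mir9-3 share genes, and Mir9-2 had only 6 counts in replicate 1 and 11 in replicate 2. The test compares 2 libraries and covers counting error only, and in thinly counted pairs it has less power.

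**Figure D2:**
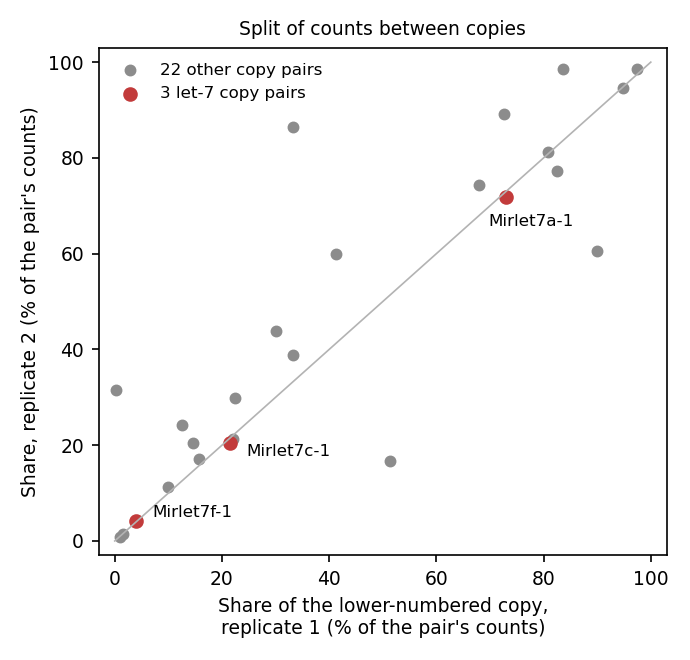
Share of a copy pair's counts held by the lower-numbered copy in replicate 1 (horizontal axis) and replicate 2 (vertical axis), in percent, for the 3 let-7 pairs (red) and 22 other numbered pairs (grey). The let-7 points lie close to the line of equal shares, at 72.9% and 71.8% for Mirlet7a-1, 21.4% and 20.4% for Mirlet7c-1, and 4.00% and 4.15% for Mirlet7f-1.

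Between the libraries the rows of the let-7a and let-7c copies moved apart from those of the let-7f copies. The same grouping divides the copies by the shortest read from the mature start that can be placed. It is 24 bases for the let-7a and let-7c copies and 23 for the let-7f copies. Whether read lengths differed between the libraries was not tested. CPM was higher in replicate 2 by 1.87-fold for Mirlet7a-1 (exact 95% interval 1.75 to 2.00) and by 1.97-fold for Mirlet7a-2 (1.78 to 2.20). It was higher by 1.72-fold for Mirlet7c-1 (1.65 to 1.80) and by 1.83-fold for Mirlet7c-2 (1.79 to 1.87). The let-7f copies were higher by 1.16-fold for Mirlet7f-1 (1.03 to 1.31) and 1.11-fold for Mirlet7f-2 (1.09 to 1.14), but their ratio fell below 1 with edgeR's TMM or DESeq2's size factors. The intervals of both let-7f copies lay below those of all 4 let-7a and let-7c copies. Set against either let-7f copy, which needs no library scaling, each let-7a or let-7c copy was 1.49 to 1.77 times higher in replicate 2 than in replicate 1.

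All 6 copies were called higher in replicate 2 by a two-sided exact binomial test adjusted over 579 genes (Benjamini-Hochberg; the weakest was Mirlet7f-1, adjusted p = 0.0202). That is read against a background in which 68.9% of the genes tested were called, 42% as higher and 26.9% as lower in replicate 2. The median log2 ratio of the 6 copies was 0.83 (range 0.16 to 0.97), beside 0.27 over all detected genes. TMM and the size factors moved the median of the detected genes by -0.27 and -0.29. With either, the let-7a and let-7c copies stayed called as higher in replicate 2, Mirlet7f-2 was called as lower (log2 ratio -0.13 and -0.14) and Mirlet7f-1 was not called (-0.07 and -0.08). The test covers counting error alone. Between 42.3% (Mirlet7a-2) and 88.5% (Mirlet7f-2) of the detected genes had a larger log2 ratio in either direction than the copy, so none of the 6 stood outside the spread between these libraries. A negative binomial test (edgeR) with a dispersion taken from the 2 libraries called 0 of the 6 and 0 of 579 genes, with 36 genes and no copy at an unadjusted p under 0.05. That dispersion treats the 2 libraries as 1 group and so already holds the difference under test. The test could therefore hardly call any gene, and no conclusion is drawn from it.

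The copies were also compared with the miRNA genes beside them, which can come from the same primary transcript. Of 7 pairs of a copy with a miRNA gene on the same strand within 10 kb, 5 changed their ratio between the libraries. The test was a two-sided Fisher exact test with Benjamini-Hochberg adjustment over 438 neighbour pairs. Of all 438 pairs 79.9% changed, so the share was near that of the whole list. A gene with several neighbours enters several pairs, so the pairs are not independent. Many of the 438 come from the cluster around Mir379 and Mir409. Relative to Mirlet7b, 622 bases away in the same host gene, Mirlet7c-2 was 2.18-fold higher in replicate 2 than in replicate 1 (95% interval 2.13 to 2.23). Mirlet7b, the family row with the highest mean CPM (Mirlet7i was above it in replicate 2), had 99521 CPM in replicate 1 and 83732 in replicate 2. Mirlet7c-1 was higher relative to Mir99a by 1.88-fold (1.80 to 1.96), with Mir99a at 33006 and 30274 CPM. Mirlet7a-2 was higher relative to Mir100 by 1.83-fold (1.65 to 2.04), with Mir100 at 5466 and 5890 CPM.

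The rows of the chromosome 13 cluster did not move as one. They can hold unlike reads. From the mature start a read needs 24 bases to be placed at Mirlet7a-1 and 23 at Mirlet7f-1. For Mirlet7d every window of 22 bases was found at no other miRNA locus. Whether read lengths differed between the libraries was not tested. Relative to Mirlet7f-1, 262 bases away, Mirlet7a-1 was 1.61-fold higher in replicate 2 (1.41 to 1.84; adjusted p = 3.57e-12, Fisher exact test). The ratio of Mirlet7f-1 to Mirlet7d in replicate 2 was 0.595 times that in replicate 1 (0.529 to 0.668; adjusted p = 6.27e-18, Fisher exact test). Mirlet7d and Mirlet7a-1 were not called apart, with a 1.04-fold change of their ratio (0.976 to 1.11; adjusted p = 0.257, Fisher exact test). Mirlet7d itself had 14920 CPM in replicate 1 and 29093 in replicate 2.

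On the X chromosome Mirlet7f-2 and Mir98 kept their ratio to within counting error. Mirlet7f-2 held 42.49% of the counts of this pair in replicate 1 and 42.50% in replicate 2, a 1.00-fold change with an interval of 0.969 to 1.03 (adjusted p = 0.997, Fisher exact test). Copies thus stayed within 1.06-fold of their counterpart on another chromosome, while against the 7 neighbour combinations the move ran from none to 2.18-fold. The rows compared are unlike in the reads they can hold. From the mature start, both copies of a pair need reads of the same length to be placed, 24 or 23 bases. For Mirlet7b, Mirlet7d and Mir98 every window of 22 bases was found at no other miRNA locus. The difference between copy pairs and neighbour pairs was not tested.

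**Figure D3:**
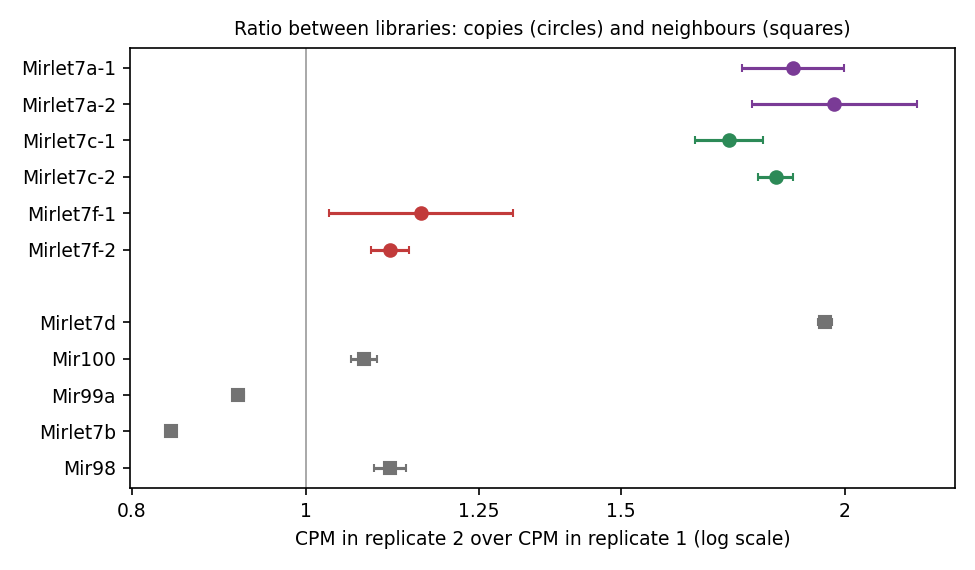
Ratio of CPM in replicate 2 to CPM in replicate 1 (log axis) for the 6 copies (circles, coloured by mature form) and the miRNA genes within 10 kb of them (grey squares), with exact 95% intervals from the counts. The let-7a and let-7c copies lie between 1.72 and 1.97, the let-7f copies at 1.16 and 1.11, and the neighbours spread from 0.841 (Mirlet7b) to 1.95 (Mirlet7d).

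Among the 6 other family genes 4 were called higher in replicate 2 and 2 lower (exact binomial test, same adjustment), or 3 and 3 with TMM or size factors, where Mir98 turned. Mirlet7i had 45686 CPM in replicate 1 and 94010 in replicate 2, Mirlet7g had 57503 and 82569, and both were called higher under each scaling. Mirlet7e, in a cluster with Mir99b and Mir125a on chromosome 17, was at 22292 and 21124 CPM. Among more distant let-7 entries, Mir7j had 17.0 CPM in replicate 1 and 29.3 in replicate 2, and Mir7k had a total of 4 counts. Of the 6 cluster partners from the miR-99/100 and miR-125 families, 3 were called higher in replicate 2 and 3 lower, or 2 and 4 with TMM or size factors, where Mir100 turned.

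Counting by strand decided whether Mirlet7f-1 was seen at all. An annotated miRNA gene, Gm24111, covers the same bases on the plus strand. Mirlet7f-1 had 597 and 539 counts in the column for its own strand and 0 in both libraries in the column without strand. Mirlet7e, which has the miRNA gene Gm25927 annotated opposite it, was at 0 there too. The other 5 copies had the same counts in both columns.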

How the data were processed

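MicroRNA-seq libraries from 2 samples of 1 group were analysed. Each deposited table lists raw counts (whole numbers of reads) for every annotated miRNA, without a header. Per the text deposited beside them, the assembly is mm10 and the annotation GENCODE M21; aligner, trimming and counter are not named in the sources used here. Of the 3 value columns, the one that holds nearly all reads on a single strand was used, and the leading one was taken as counted without regard to strand. Rows for unmapped reads (17.1% and 17.2% of reads), reads matching several places (41.9% and 46.4%) and reads outside miRNA genes (5.56% and 5.17%) stayed out of library sizes. All 2202 identifiers matched GENCODE M21.

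CPM is counts per 1000000 gene counts. Log2 ratios add 1 CPM, and folds do not. Genes with at least 10 counts in sum were tested between the libraries (exact binomial test). Numbered copies and same-strand neighbours within 10 kb were tested with Fisher's exact test, with log-scale (Woolf) intervals of the change. Benjamini-Hochberg adjustment ran over all genes or pairs at a threshold of 0.05, and the tests were tried on simulated counts. With 1 library on a side, these tests compare libraries and not conditions. Intervals and tests cover counting error only and treat each read as independent. PCR copies are not independent molecules, so the intervals can be too narrow. Replicates are separate tissue samples per the labels.

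Mature sequences came from RefSeq (6 of 6 passenger strands and 5 of 6 guide strands listed; let-7a-5p was located in Mirlet7a-2 by its sequence). scipy 1.17.1, edgeR 4.0.16, DESeq2 1.42.0 and Biopython 1.88 were used. Named genes are the 6 copies, same-strand neighbours, other let-7 family genes and their cluster partners, and the 3 genes nearest in level to the most abundant copy. Members and lists were chosen with earlier results of these data known. Alternatives were other scalings, strand column, count filters, neighbour distance, denominators, a negative binomial test and leaving out each library.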

Additional observations from a re-analysis of the deposited data

Results flagged for a closer look

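Values outside the rows used above were flagged in 2 places. Gm24111, the miRNA gene annotated opposite Mirlet7f-1, had 597 counts in replicate 1 and 539 in replicate 2 in the opposite-strand column, above the limit of 3 counts that a count of 0 allows. These are the same numbers as Mirlet7f-1 has on its own strand, and Gm24111 covers all bases of Mirlet7f-1. With the columns read by strand as above, they are the Mirlet7f-1 reads counted again and no separate signal. Gm24111 had 0 counts on its own strand in both libraries. Reads matching several places numbered 6481877 in replicate 1 and 6343330 in replicate 2. Full-length reads of the 3 mature let-7 sequences fall in this class wherever they match both loci, and the tables do not say which miRNAs it holds.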

How the results depend on the processing

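Of the summary results, the negative binomial test left 0 of the 6 copies called between the libraries. Its dispersion already held the difference between the libraries, so it could hardly call any gene. Counting over gene reads plus reads at several places lowered the summed mean level of the copies from 7740 to 3285 CPM. Counts without strand left 3 of 5 neighbour pairs called, because Mirlet7f-1 has no counts there and its 2 pairs drop out. The other 16 summary values kept their size within 1.5 times or 1 SD. Those from leaving out a library are among them and could not do otherwise. Log2 ratios between libraries reversed for Mirlet7f-1 (-0.068 with TMM, -0.084 with size factors) and Mirlet7f-2 (-0.13 and -0.14). Leaving out either library kept all 6 copies detected, with a summed level of 9308 CPM without replicate 1 and 6171 without replicate 2. That outcome was fixed in advance, since detection already asked for the threshold in each library. With 2 libraries, either value also always lies within 1 SD of their mean. With 1 library left no test between libraries can be run. No paired analysis was possible because there is 1 group. Share called higher among all genes called was 60.9%, or 49.5% with TMM and 49.0% with size factors. Depth limits Mirlet7a-2 and Mirlet7f-1 most, with 576 to 885 and 539 to 597 counts per library, and without the reads at several places no row gives the amount of mature let-7a, let-7c or let-7f.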

Other observations

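The base at which 2 copies first differ past their shared mature sequence was also read for other numbered pairs. This was done after the let-7 values were seen, as a description with no test. Of the 25 numbered pairs 20 were read, and the Mir9, Mir24 and Mir124a pairs were not. Of the 20, each with 1 mature sequence in common, 16 had U in 1 copy only. The copy with U had more counts than its counterpart in both libraries in 12 of these 16, the 3 let-7 pairs included, and in 9 of the 13 pairs outside let-7. Mir129-1 and Mir7-1 carried the U and had fewer counts than Mir129-2 and Mir7-2 in both libraries, and for Mir135a and Mir29b the order changed between the libraries. Mir125b-1, with U where Mir125b-2 has another base, held 7239 counts against 2732 in replicate 1 and 24323 against 2963 in replicate 2, so this pair kept its order and not its ratio. Mir125b-1 lies in the same chromosome 9 host gene as Mirlet7a-2, and Mir125b-2 in the same chromosome 16 host gene as Mirlet7c-1. Relative to Mir125b-1, Mirlet7a-2 was 2.19-fold lower in replicate 2 (95% interval 1.96 to 2.44), while Mirlet7c-1 was 1.24-fold higher relative to Mir125b-2 (1.16 to 1.32).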
